A study of Danio rerio with 8 samples.

Results

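The genes described here are 10 markers of neutrophils and macrophages, the phagocytic white blood cells of the larval zebrafish: lyz, mpx and npsn (neutrophil), grn1 and grn2 (granulins), mpeg1.1, marco and csf1ra (macrophage), lcp1 (all leukocytes) and cd74a (antigen presentation). They were chosen by gene symbol, and all 10 were found among the 25725 genes of every library. RNA had been sequenced from zebrafish (Danio rerio) larvae whose tissue is labelled heart, taken at 5 days postfertilization. In 4 samples (DMSO 1 to 4) the larvae were kept in the solvent DMSO, and in 4 samples (TCDD 1 to 4) they were exposed to the dioxin TCDD, a ligand of the aryl hydrocarbon receptor, with both exposures starting at 2 hours postfertilization. Neither the strain, the TCDD dose nor the number of larvae pooled in a sample is stated in the labels. Nothing says that the samples of a group came from separate clutches, and p-values therefore speak only of the spread among the 8 samples, which may be technical.

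Neutrophils carry preformed granules with enzymes that kill or digest microbes, and they are the first cells to reach a wound or infection. Macrophages take up microbes and dead cells through scavenger receptors, and their survival depends on signals through the colony stimulating factor 1 receptor. In the zebrafish larva both cell types come from early myeloid precursors, circulate or sit in tissues, and form a small share of the cells of any organ. In bulk RNA, fewer cells of a type and less RNA per cell cannot be told apart.

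Library totals ran from 14048563 to 15183023 estimated counts, and a floor of 3 counts equalled 0.198 to 0.214 CPM (counts scaled to the library size). The labelled tissue was checked against its markers: the summed cardiomyocyte list held 652 to 1182 CPM per library, against 35307 to 57391 CPM for the liver list and 11262 to 17505 CPM for the epidermis list. The 10 leukocyte markers together held 78.3 to 121 CPM. DMSO 1 and TCDD 2 stood apart on the second principal component (28.5% of the variance). Genes with an implied length under 1000 bases took 34.02% of the counts of DMSO 1 against 23.5 to 29.6% in the other 7 libraries. Where a call was lost without either library, the value without it, or the number of fits that lost the call, stands beside the result.

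Of the 10 markers, lyz, grn1 and cd74a fell in TCDD, none rose, and 7 were not called. The test was edgeR's quasi-likelihood test over the 20522 genes that passed its filter on low counts, with calls at a Benjamini-Hochberg adjusted p under 0.05. All 10 markers passed that filter, and the 3 called were also the only ones whose 4 TCDD values all lay below the 4 DMSO values. Over all genes tested, 5.72% were called in either direction, 2.73% lower and 2.99% higher. Of the same genes 6.34% had all TCDD values below all DMSO values and 7.61% had them all above. The median log2 fold change of the markers was -0.16, with 6 below 0 and 4 above, while 10259 of the 20522 genes tested were below 0. At an unadjusted p under 0.05 the edgeR test also gave 3 lower markers and none higher, and DESeq2 called 3 lower and 0 higher.

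**Figure D1:**
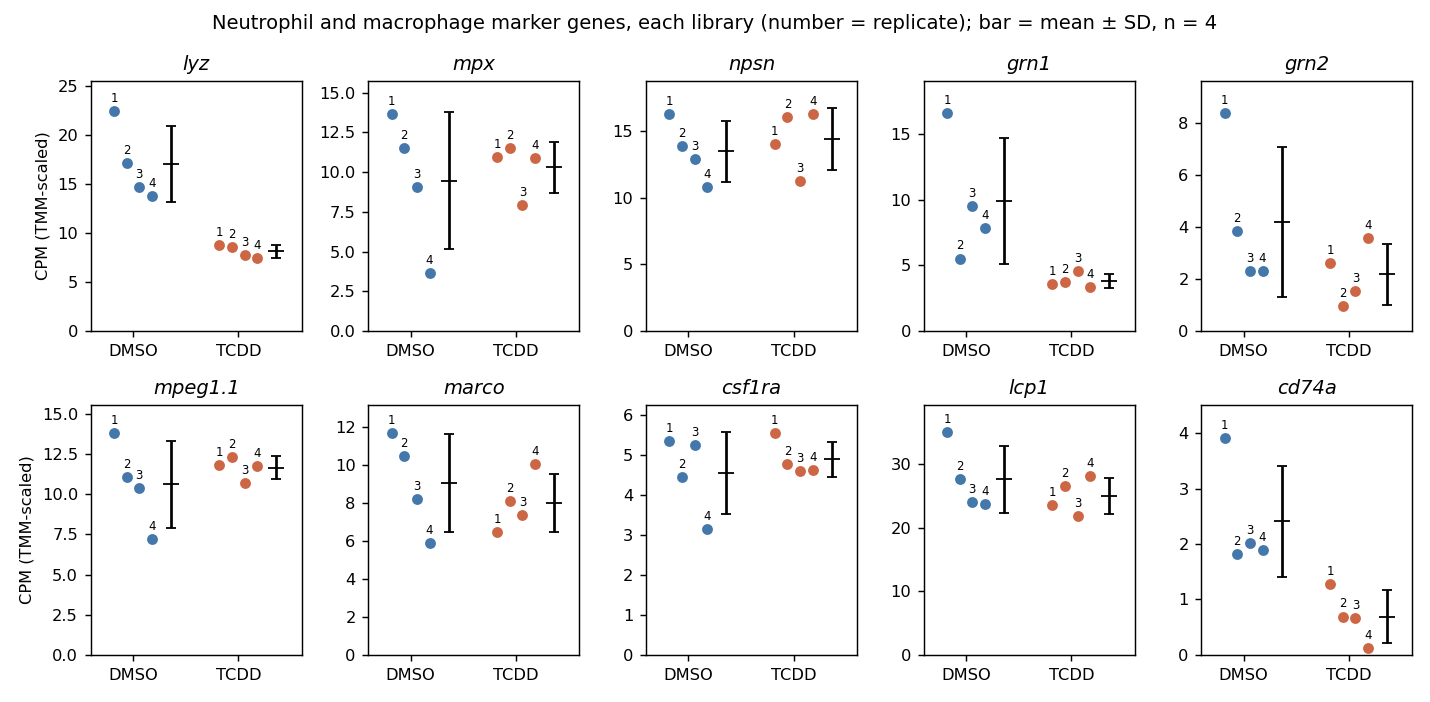
TMM-scaled CPM of the 10 marker genes in each of the 4 DMSO and 4 TCDD libraries, with a numbered point for each library and a bar for the group mean ± SD (n = 4). The points of lyz, grn1 and cd74a do not overlap between the groups, while those of the other 7 genes do.

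Per transcript length, lyz was the most abundant marker. In TPM (the authors' values, scaled for transcript length) it averaged 48.2 ± 9.53 (SD, n = 4) in DMSO, above npsn at 13.7 ± 2.92 and lcp1 at 13.3 ± 2.35. Below them in DMSO came grn2 (8.70), grn1 (6.96), marco (5.1025), mpeg1.1 (4.29), mpx (3.10), cd74a (2.47) and csf1ra (1.32 TPM). Among neighbours in that order, the libraries' ranges separated lyz from npsn and cd74a from csf1ra, and overlapped at every other step. In TCDD lyz stayed first at 28.7 ± 1.16 TPM, grn1 moved from 5th to 8th place at 3.54 ± 0.513 TPM, and cd74a moved to the last place at 0.900 ± 0.596 TPM.

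The gene lyz encodes lysozyme, which cuts bacterial cell walls and is stored in neutrophil granules. Its TMM-scaled CPM (CPM on library sizes adjusted for composition) was 22.4, 17.1, 14.7 and 13.8 in DMSO 1 to 4 and 8.78, 8.59, 7.74 and 7.46 in TCDD 1 to 4. Every TCDD library was below every DMSO library, and the 4 TCDD values lay closer together. The group means were 17.0 ± 3.89 and 8.14 ± 0.641 CPM (SD, n = 4), a log2 fold change of -1.06 ± 0.16 (SE; 95% interval -1.42 to -0.71; adjusted p = 0.0038), or 2.09-fold lower. The call was kept in every alternative planned, including each of the 8 fits that leave out 1 library.

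The length of lyz implied by its counts and FPKM was short, at 338 bases. An implied length need not equal the full length of the transcript. It fell in the lowest length decile of the genes tested, whose median log2 fold change was -0.25 and of which 5.78% were called lower. With offsets that correct each library for transcript length, the log2 fold change of lyz was -0.72 ± 0.15 (adjusted p = 0.0139). With those offsets and without DMSO 1 and TCDD 2 it was -0.72 with an adjusted p of 0.0526.

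The other neutrophil markers did not show a difference past the test. The gene mpx encodes myeloperoxidase, the granule enzyme that makes hypochlorous acid. Its CPM was 13.7, 11.5, 9.08 and 3.63 in DMSO 1 to 4 and 10.9, 11.5, 7.94 and 10.9 in TCDD 1 to 4. The groups overlapped, and DMSO 4 was the lowest of all 8 libraries. Its log2 fold change was 0.13 ± 0.31 (95% interval -0.56 to 0.81; adjusted p = 0.856), and without DMSO 4 it was -0.15.

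The gene npsn encodes nephrosin, a secreted metalloprotease of fish granulocytes. Its CPM was 16.3, 13.9, 12.9 and 10.8 in DMSO 1 to 4 and 14.04, 16.1, 11.3 and 16.3 in TCDD 1 to 4, so the groups overlapped. Its log2 fold change was 0.10 ± 0.16 (95% interval -0.25 to 0.44; adjusted p = 0.768). In the fit without length offsets, the upper bound of the lyz interval, -0.71, lay below the lower bounds of the npsn and mpx intervals. With the offsets the log2 fold change was -0.72 ± 0.15 (SE) for lyz, 0.24 ± 0.15 for npsn and 0.06 ± 0.32 for mpx. The separation is shown for the first fit only, and the difference between the genes was not tested. The summed neutrophil markers held 37.8 ± 7.94 CPM in DMSO and 34.4 ± 4.52 CPM in TCDD (library size alone), and those groups overlapped too. TMM-scaled, the sums were 40.0 ± 10.2 and 32.9 ± 4.07 CPM, also with overlap.

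Within each library, the proportions of the neutrophil markers differed between the groups. The ratio of lyz counts to npsn counts was 1.38, 1.23, 1.14 and 1.27 in DMSO 1 to 4 and 0.625, 0.534, 0.686 and 0.458 in TCDD 1 to 4. Every DMSO library thus held more lyz than npsn counts and every TCDD library held fewer. The mean log2 ratio was 1.14 lower in TCDD. The log2 ratio of lyz to mpx was 1.31 lower in TCDD and that of lyz to lcp1 was 0.91 lower, both without overlap. The ratios of mpx to npsn overlapped between the groups. These ratios do not depend on library size, but they are not corrected for transcript length. Those with lyz share its values tested above, and all are given with no test of their own. With the length offsets the log2 fold change was -0.72 for lyz, 0.24 for npsn, 0.06 for mpx and -0.15 for lcp1.

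**Figure D2:**
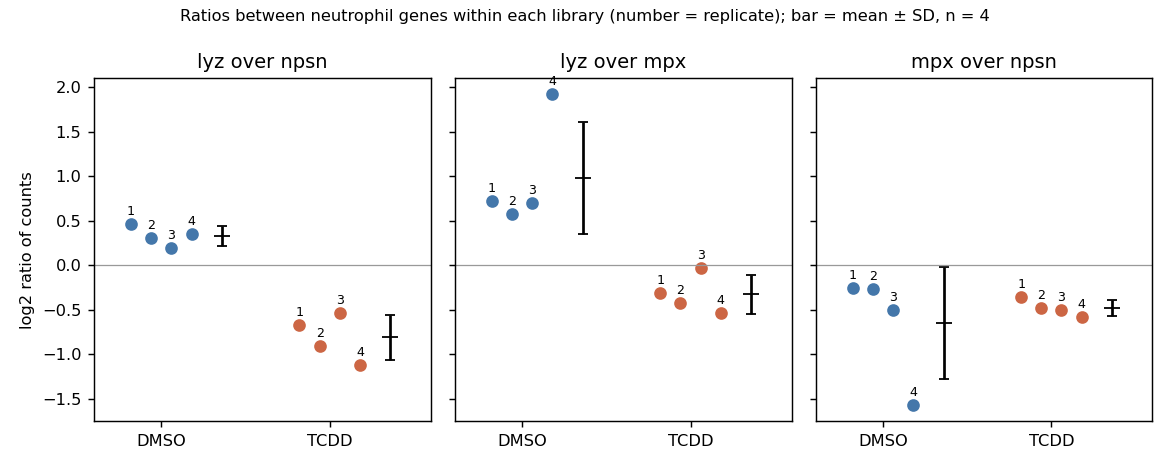
Log2 ratios of counts between marker genes within each library, for 4 DMSO and 4 TCDD libraries, with numbered points for libraries and bars for the mean ± SD. The ratios with lyz as the numerator are lower in every TCDD library than in every DMSO library, and the ratio of mpx to npsn overlaps.

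The granulin genes encode secreted precursors of small cysteine-rich growth factor peptides, and grn1 and grn2 are the short forms specific to fish. The gene grn1 had 16.6, 5.53, 9.50 and 7.82 CPM in DMSO 1 to 4 and 3.58, 3.74, 4.602 and 3.35 CPM in TCDD 1 to 4. All TCDD values were below all DMSO values, and DMSO 1 was the highest. The log2 fold change was -1.36 ± 0.29 (95% interval -2.01 to -0.72; adjusted p = 0.0213), or 2.57-fold lower. The adjusted p rose to 0.0578 without DMSO 3, 0.0582 without TCDD 1 and 0.0559 without TCDD 2.

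The gene grn2 had 8.39, 3.84, 2.31 and 2.30 CPM in DMSO 1 to 4 and 2.63, 0.970, 1.53 and 3.602 CPM in TCDD 1 to 4. The groups overlapped, since TCDD 1 and TCDD 4 were above DMSO 3 and DMSO 4. The log2 fold change was -0.92 ± 0.48 (95% interval -1.98 to 0.13; adjusted p = 0.286), so the interval includes values close to that of grn1.

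Reads were shared between grn1 and grn2 in the authors' estimated counts. The estimate for grn1 was fractional in 7 of 8 libraries, while the sum of both genes was a whole number, within 0.015, in 8 of 8. The separate values therefore carry the uncertainty of that split, and the summed count does not. The summed count was 313, 139, 169 and 145 in DMSO 1 to 4 and 92, 68, 92 and 108 in TCDD 1 to 4. Every TCDD library was below every DMSO library. The sum had 14.1 ± 7.35 CPM in DMSO and 5.9998 ± 0.936 CPM in TCDD (TMM-scaled, n = 4). Its log2 fold change was -1.22 ± 0.29, with an adjusted p of 0.0350 in an edgeR fit chosen after the data were seen. In the authors' TPM, which weights each gene by its own length and so keeps the split, the sum of both genes ran from 10.99 to 23.55 in DMSO and from 5.91 to 13.59 in TCDD, and the groups overlapped. The longer granulins grna and grnb, which are expressed in many tissues, had log2 fold changes of -0.68 (adjusted p = 0.195) and 0.12 (adjusted p = 0.602).

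None of the 3 macrophage markers passed the test. The gene mpeg1.1 encodes a perforin-like protein of macrophages and is the usual source of macrophage reporter lines in zebrafish. Its CPM was 13.8, 11.1, 10.4 and 7.19 in DMSO 1 to 4 and 11.8, 12.3, 10.7 and 11.8 in TCDD 1 to 4. The TCDD values lay within the DMSO range. The log2 fold change was 0.14 ± 0.17 (95% interval -0.25 to 0.52; adjusted p = 0.701), and it was -0.012 without DMSO 4.

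The gene marco encodes a scavenger receptor that binds bacteria. Its CPM was 11.7, 10.4, 8.18 and 5.87 in DMSO 1 to 4 and 6.48, 8.11, 7.34 and 10.04 in TCDD 1 to 4. The groups overlapped, with a log2 fold change of -0.17 ± 0.21 (95% interval -0.64 to 0.29; adjusted p = 0.683).

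The gene csf1ra encodes a receptor for the growth factors Csf1 and Il34, on macrophages and on the yellow pigment cells of zebrafish skin. Its CPM was 5.35, 4.45, 5.24 and 3.14 in DMSO 1 to 4 and 5.54, 4.78, 4.602 and 4.63 in TCDD 1 to 4. Only DMSO 4 lay outside 4.45 to 5.54 CPM. The log2 fold change was 0.11 ± 0.19 (95% interval -0.30 to 0.51; adjusted p = 0.784), and -0.035 without DMSO 4. In the authors' TPM, csf1ra ran from 0.91 to 1.6 in DMSO and from 1.65 to 1.91 in TCDD. The groups thus did not overlap on that scale, which was not tested and for which the share over all genes was not counted. Mean TPM was also higher in TCDD for npsn, lcp1, marco, mpeg1.1 and mpx, and lower for lyz, grn1, grn2 and cd74a. The estimated count of csf1ra was fractional in 4 of 8 libraries, and its sum with another gene was whole, within 0.015, in 8 of 8. That sum had a log2 fold change of 0.12 (adjusted p = 0.747) in an edgeR fit chosen after the data were seen. The 3 macrophage markers summed to 22.9 ± 5.05 CPM in DMSO and 25.7 ± 2.36 CPM in TCDD (library size alone), with overlap. TMM-scaled, these sums were 24.2 ± 6.09 and 24.5 ± 1.66 CPM. The paralog of csf1ra, csf1rb, fell from 2.17 ± 0.475 to 1.005 ± 0.104 CPM in TCDD (log2 fold change -1.11, adjusted p = 0.0193). Its adjusted p was 0.0673 without TCDD 1 and 0.0506 without TCDD 2. The paralog mpeg1.2 had a log2 fold change of 0.19 (adjusted p = 0.765), which was -0.027 without DMSO 4 and -0.062 without TCDD 2.

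The gene lcp1 encodes L-plastin, an actin-bundling protein of leukocytes, and had the highest CPM of the 10 markers. Its values were 35.1, 27.6, 24.0 and 23.7 in DMSO 1 to 4 and 23.5, 26.6, 21.9 and 28.0 CPM in TCDD 1 to 4. The groups overlapped, with a log2 fold change of -0.14 ± 0.14 (95% interval -0.45 to 0.17; adjusted p = 0.612), and 0.0052 where libraries were scaled by size alone. Its interval leaves out any change as large as that of lyz. The estimated count of lcp1 was fractional in 8 of 8 libraries, and its sum with another gene was whole, within 0.015, in 8 of 8. That sum had a log2 fold change of -0.16 (adjusted p = 0.527) in an edgeR fit chosen after the data were seen.

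The gene cd74a encodes the invariant chain that escorts MHC class II molecules in antigen-presenting cells. Its counts were low, at 49, 27, 29 and 27 in DMSO 1 to 4 and 19, 10, 10 and 2 in TCDD 1 to 4. In CPM these were 3.91, 1.82, 2.03 and 1.89 against 1.28, 0.693, 0.667 and 0.129. The groups did not overlap, DMSO 1 was the highest, and TCDD 4 was under the floor of 3 counts. The log2 fold change was -1.78 ± 0.46 (95% interval -2.78 to -0.78; adjusted p = 0.0431), or 3.44-fold lower. Leaving out 1 library ended the call for DMSO 1 (adjusted p = 0.081), DMSO 3 (0.091), DMSO 4 (0.0598), TCDD 2 (0.098), TCDD 3 (0.101) or TCDD 4 (0.0505).

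The paralog cd74b went the same way without passing the test, at 2.48 ± 1.38 CPM in DMSO and 1.01 ± 0.259 CPM in TCDD (log2 fold change -1.28, adjusted p = 0.0675). DESeq2 called it, with an adjusted p of 0.0229. The list of antigen presentation genes other than cd74a had 16 genes tested, with cd74b among them. Of these edgeR called 0, with 2 lower and 2 higher at an unadjusted p under 0.05. The 2 lower included cd74b, which was also the 1 lower call of DESeq2. The median log2 fold change of the 16 genes was -0.01. Of the listed symbols, mhc2a, mhc2b and mhc2d8.46b were not matched, and 9 of the 25 matched genes were below the count filter. The 16 genes therefore do not stand for MHC class II genes as a set.

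**Figure D3:**
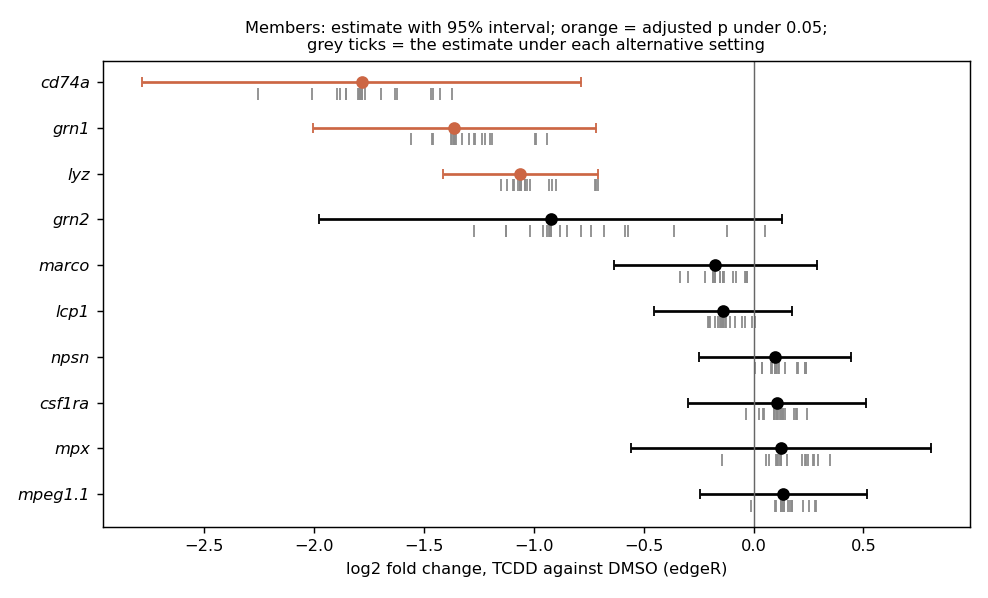
Log2 fold change of TCDD against DMSO for each marker gene with its 95% interval from the edgeR fit, in orange where called, and grey ticks for the estimates under alternative settings. The intervals of lyz, grn1 and cd74a lie below 0, and those of the other 7 genes include 0.

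The markers also varied among the libraries of a group. DMSO 1 had the highest TMM-scaled CPM within DMSO for 10 of 10 markers, and for 4 of 10 where CPM used library size alone. Its TMM factor was 0.825, against 0.972 to 1.09 in the other 7 libraries. DMSO 4 was the lowest within DMSO for 8 of 10 markers on either scale. Within TCDD, in TMM-scaled CPM, TCDD 3 was the lowest for 5 markers and TCDD 4 the highest for 4. With library size alone TCDD 3 was the lowest for 6 and TCDD 4 the highest for 6.

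Over the 8 libraries mpx, npsn and mpeg1.1 varied together, as a description with no test. The log2 CPM of mpeg1.1 and mpx had a Pearson r of 0.970 and a Spearman rho of 0.833, and r was 0.748 without DMSO 1 and DMSO 4. For mpeg1.1 and npsn r was 0.831 and rho 0.905, with an r of 0.825 without the same libraries. For mpeg1.1 and csf1ra r was 0.863 but 0.0481 without them, so that relation rests on those libraries. Each library's scaling factor is shared by all its genes.

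**Figure D4:**
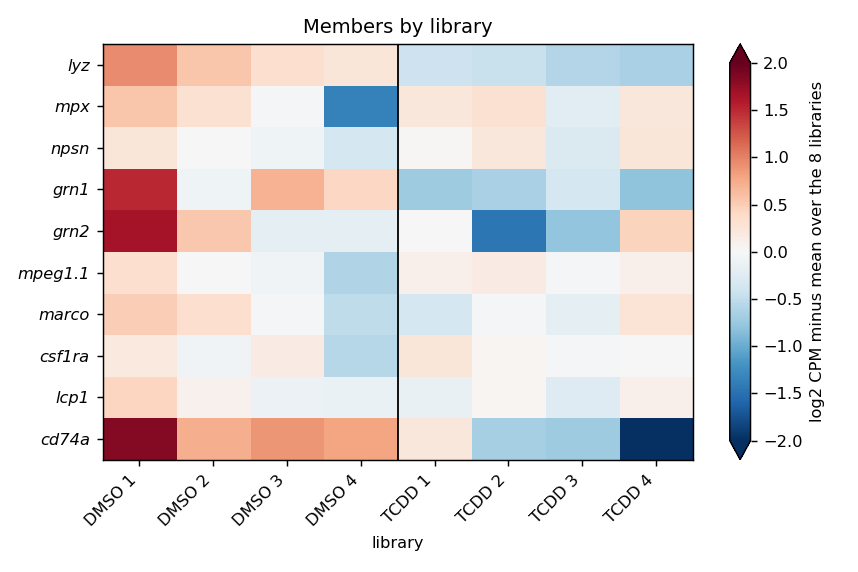
Log2 CPM of each marker minus its mean over the 8 libraries, by library, with colours ending at -2 and 2. DMSO 1 is above the mean for all 10 markers, and lyz, grn1 and cd74a are lower in each TCDD library than in each DMSO library.

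Among 12378 tested genes that averaged 5 CPM or more and carry a symbol other than a clone name, the patterns most like lyz over the 8 libraries were those of st3gal4, a sialyltransferase (r = 0.985), fam151a (0.981), tmem205 (0.980) and arsia (0.978). For cd74a they were cbln11 (0.992), emilin2b (0.985), efemp2b (0.982) and slc1a3a, a glutamate transporter (0.979). For npsn they were luc7l3 (0.968), erlec1 (0.958), ppp1cc (0.948) and ubxn1 (0.944). For mpeg1.1 the second of the nearest 4 was another marker, mpx (0.970), beside cyfip1 (0.976), yars1 (0.966) and hhla2a.1 (0.960). None of the other nearest genes was a marker gene. The groups are separate for lyz and cd74a, so likeness to those genes largely restates a difference between the groups.

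Other genes were read from lists made for the same cells. Of 25 other genes of the neutrophil list tested, 2 rose and 1 fell, and their median change was 0.02 on the log2 scale. The split was 1 higher and 3 lower without DMSO 2, 3 and 3 with DESeq2, and 1 and 1 without DMSO 1, DMSO 3, TCDD 1 or TCDD 2. It was 4 and 1 with length offsets and a replicate block. At an unadjusted p under 0.05 the edgeR test gave 5 lower and 4 higher. In DMSO cpa5 (795 CPM), tcnba (267) and arg2 (149) of this list stood far above lyz, mpx and npsn summed (40.0 CPM, TMM-scaled). The list is therefore not read as neutrophils alone, and the part of other cells was not tested. The gene il6r, the interleukin 6 receptor, rose from 13.98 ± 2.09 to 27.9 ± 2.13 CPM in TCDD (log2 fold change 0.998 ± 0.13, adjusted p = 0.0016). The gene timp2b, an inhibitor of metalloproteinases, rose by a log2 fold change of 1.16 (adjusted p = 0.0327), with TCDD 4 the highest at 103 CPM. It did not pass in the fits that left out DMSO 1 (adjusted p = 0.149), DMSO 2 (0.0803), DMSO 3 (0.0944), TCDD 1 (0.0509) or TCDD 2 (0.0802). The gene tcnba, a vitamin B12 binding protein listed under its synonym tcnl, fell from 267 ± 116 to 116 ± 11.9 CPM in TCDD (log2 fold change -1.20, adjusted p = 0.0172). Neither fcer1gl (log2 fold change -0.78, adjusted p = 0.0754) nor lect2l (-0.55, adjusted p = 0.0767) passed in edgeR. DESeq2 called both lower (adjusted p = 0.0269 and 0.0325). The cytokine receptor gene csf3r, at 0.728 and 1.01 CPM, was not called. The genes cxcr1, cxcr2, illr4 and alox5ap were below the count filter.

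Of 30 other macrophage and microglia genes tested, 5 fell and 1 rose, and their median log2 fold change was -0.33. Without TCDD 1 or TCDD 2, 3 fell and 0 rose. The summed list held 3855 ± 225 CPM in DMSO, against 22.9 ± 5.05 CPM for the 3 macrophage markers (library size alone). This list is therefore not read as macrophages alone either, and the part of other cells was not tested. Lists of other cell types differed in their share of lower calls. It was larger for 3 of 11 cardiomyocyte genes (median -0.46), 3 of 14 epidermis genes (median -0.27) and 5 of 16 erythrocyte genes (median -0.52). It was also larger for 3 of 15 pigment cell genes (median -0.24) and 3 of 15 endothelium genes (median -0.27). It was smaller for 0 of 12 liver genes (median -0.08), 0 of 9 thrombocyte genes (median -0.04) and 1 of 11 lymphocyte genes (median -0.48). When 1 library was left out, the lower calls ran from 0 to 3 for cardiomyocyte and 2 to 4 for epidermis genes. They ran from 0 to 3 for pigment cell and 2 to 5 for endothelium genes. Of the 5 that fell here, csf1rb also belongs to the pigment cell list, in which gch2 and pnp4a fell too, with calls lost in 5 and 7 of the 8 fits that leave out 1 library. The mannose receptor genes mrc1a and mrc1b fell, by 0.81 (adjusted p = 0.0085) and 1.36 (adjusted p = 0.0045) on the log2 scale. Both kept their calls in every alternative fit that tested them, but neither passed the filter of a mean of 10 CPM. In zebrafish these genes are also expressed by lymphatic and venous endothelium, so they are no markers of macrophages alone. The endothelium genes that fell were tek (log2 fold change -1.16, adjusted p = 0.0037), flt4 (-0.62, adjusted p = 0.0119) and lyve1b (-0.67, adjusted p = 0.0161, lost without DMSO 3 at 0.06 or TCDD 1 at 0.0626). The part of vessel cells in the mannose receptor result was not tested.

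The chemokine gene ccl34b.1 fell from 9.13 ± 4.13 to 2.72 ± 0.834 CPM in TCDD (log2 fold change -1.74, adjusted p = 0.0122), and its adjusted p was 0.121 without DMSO 1 and TCDD 2. The organic anion transporter gene slco2b1 fell (log2 fold change -0.57, adjusted p = 0.0480) and the lysosomal protease gene ctsl.1 rose (0.69, adjusted p = 0.0345). Both were named after their values were seen. The call of slco2b1 was lost in 7 of 8 fits that leave out 1 library, and that of ctsl.1 in the fits that left out DMSO 3 (adjusted p = 0.108), DMSO 4 (0.0659), TCDD 1 (0.0839) and TCDD 2 (0.0872).

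Of 24 other pan-leukocyte genes tested, 1 fell and none rose, and their median log2 fold change was -0.30. The count of lower genes was 0 without TCDD 1 or TCDD 2, and 3 without DMSO 2 or with DESeq2. The fallen gene was wasb, a regulator of actin assembly (log2 fold change -0.66, adjusted p = 0.0208), lost without TCDD 1 (0.0565) or TCDD 2 (0.0616). Its call was also lost with library size alone (adjusted p = 0.0651) and without both DMSO 1 and TCDD 2 (0.0808). The tyrosine phosphatase gene ptprc, which encodes the leukocyte antigen CD45, had 12.35 ± 1.298 CPM in DMSO and 10.7 ± 1.76 CPM in TCDD (adjusted p = 0.444). The genes laptm5 (log2 fold change -0.77, adjusted p = 0.0533) and coro1a (-0.72, adjusted p = 0.0721) did not pass in edgeR, while DESeq2 called both (adjusted p = 0.0131 and 0.0205). Counted once each, the neutrophil, macrophage and pan-leukocyte lists had 78 genes tested, of which 7 fell and 3 rose. Against the 2.73% lower and 2.99% higher over all genes, these lists are described by counts only and get no test.

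**Figure D5:**
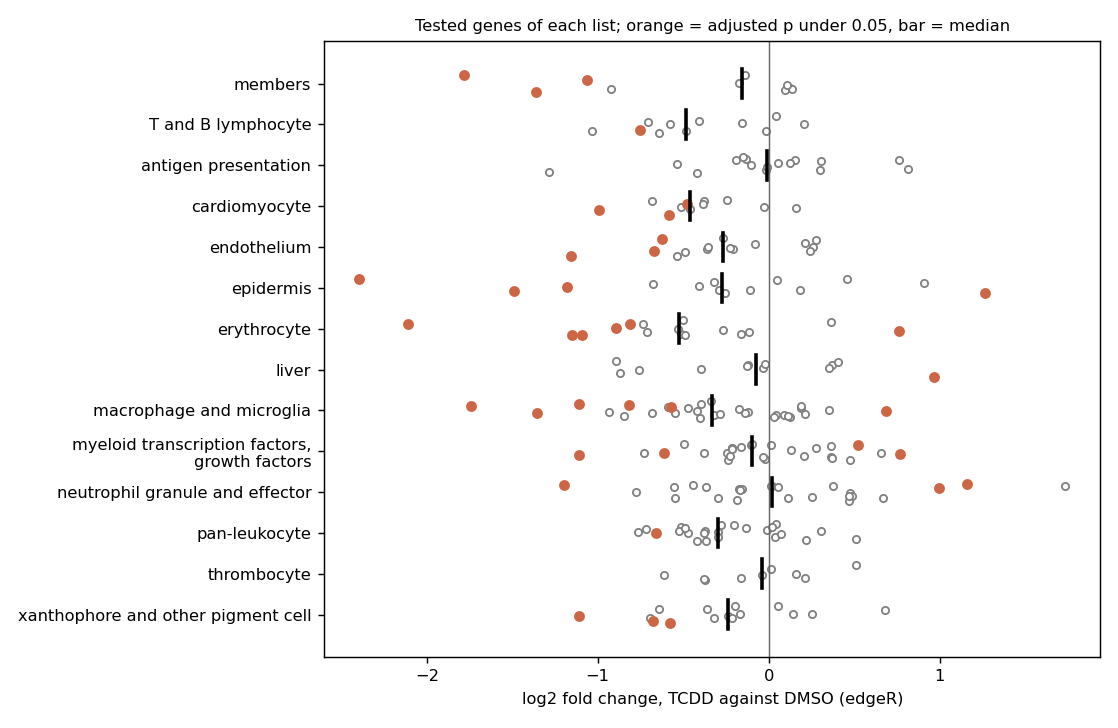
Log2 fold changes of the genes tested in each gene list, with filled orange points for called genes, open points for the others and a bar for the median. The medians of 12 of the 13 lists other than the 10 markers are below 0, from -0.52 (erythrocyte) to -0.01 (antigen presentation), and that of the neutrophil list is 0.02.

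Among genes that control the growth of these cells, csf1b, a growth factor for macrophages, rose from 5.62 ± 0.735 to 9.57 ± 0.826 CPM in TCDD (log2 fold change 0.77, adjusted p = 0.01). It kept its call in every alternative fit that tested it, but did not pass the filter of a mean of 10 CPM. The transcription factor gene lmo2 fell (log2 fold change -0.61, adjusted p = 0.0151), with an adjusted p of 0.0537 without DMSO 3. The myeloid regulators spi1b and irf8 had log2 fold changes of 0.13 (adjusted p = 0.769) and -0.09 (adjusted p = 0.785). In all, 2 of 27 genes of this list rose and 2 fell, csf1rb being the second that fell and myb the second that rose (log2 fold change 0.52, adjusted p = 0.0435, lost in 6 of 8 fits that leave out 1 library).

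Of the lists of other blood cells, that of erythrocytes differed between the groups in its sum. The summed erythrocyte list held 8147 ± 1418 CPM in DMSO and 5445 ± 872 CPM in TCDD without overlap, and 5 of its 16 tested genes fell and 1 rose. When 1 library was left out, its lower calls ran from 3 to 8, and with length offsets they were 4. Of 11 lymphocyte genes tested 1 fell, rag2 (log2 fold change -0.76, adjusted p = 0.0408, lost in 6 of 8 fits that leave out 1 library), and the summed list overlapped between the groups. Of 9 thrombocyte genes edgeR called 0, with 1 lower and 0 higher at an unadjusted p under 0.05, and DESeq2 called 0. The part of blood content in the lower lyz, grn1 and cd74a values was not tested.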

How the data were processed

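The 8 libraries, prepared per the labels' protocols with Trizol and a SMARTER kit, were aligned with Bowtie2 to GRCz11 per the submitters' processing notes. Gene values came from a quantifier and annotation not given in the sources used here. The deposited files hold the authors' estimated counts per gene, without normalization, with the authors' TPM and FPKM, both scaled for length and depth. After rounding, the test was that of edgeR 4.0.16, run under R 4.3.3 (filterByExpr, TMM, robust quasi-likelihood F-test, two-sided). Genes varied between samples of a group with a biological coefficient of variation of 18.3%. Each SE was the log2 fold change over the square root of F, and intervals used the t distribution. Values of single genes are TMM-scaled CPM, and sums used library size alone unless marked as TMM-scaled. TPM was used to order genes. Implied length came from the ratio of count to deposited FPKM, and offsets smoothed log2 CPM on it (span 0.3). The floors cover counting error only, while the intervals also include the spread among the samples of a group. The step was tested on simulated data, and no library was a copy of another in its group (chi-square over its degrees of freedom at least 9.0).

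The members and lists were chosen with earlier results of these data known. Named genes were the 10 members, up to 4 genes with the smallest p in each list, the paralogs, and the 4 genes most like lyz, npsn, mpeg1.1 and cd74a. The list genes ptprc, csf3r, spi1b, irf8, cpa5 and arg2, and those below the count filter, were named outside that rule. Symbols were matched with a gene table of another assembly, so no coordinates are given. The symbol cd163 matched only a synonym of another gene and was left out. Alternatives used DESeq2 1.42.0, limma-voom (limma 3.58.1), other factors, filters and thresholds, the replicate block, length offsets and left-out libraries. Summed counts of genes that share reads, and length offsets without DMSO 1 and TCDD 2, were added after the data were seen. Tables and figures were made in Python 3.11.15 (pandas 2.3.3, numpy 2.4.6, matplotlib 3.10.9, SciPy 1.17.1).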

Additional observations from a re-analysis of the deposited data

Results flagged for a closer look

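In 2 of 136 groups of 4 libraries, 1 library lay far from the others by Dixon's test, which flags about 1 group in 20 by chance. The CPM of cd74a in DMSO 1 was 3.91, against 1.82 to 2.03 in the other DMSO libraries. The CPM of fcer1gl, which encodes a signalling chain of immune receptors, was 15.3 in DMSO 1, against 7.55 to 8.04 in the other DMSO libraries. DMSO 1 also had the lowest TMM factor. In counts, before any scaling, cd74a was at 49 in DMSO 1 and at 27 to 29 in the other DMSO libraries. DMSO 1 also had the largest share of counts in genes under 1000 bases (34.02%). The implied length was 899 bases for cd74a and 164 bases for fcer1gl. The part of the factor and of transcript length in either value was not tested.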

How the results depend on the processing

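Of 233 alternative values for the log2 fold changes of the members, 216 kept their direction and side of the threshold, 12 lost the call and 5 changed sign. The sign changes were in members that were not called. Without DMSO replicate 4 the value was -0.15 for mpx, -0.012 for mpeg1.1 and -0.035 for csf1ra. With 1 library, or both DMSO 1 and TCDD 2, left out, values ran up to 0.35 for mpx, 0.28 for mpeg1.1 and 0.20 for csf1ra. The value was 0.0052 for lcp1 with library size alone, and 0.053 for grn2 with length offsets and without DMSO 1 and TCDD 2. The paralog mpeg1.2 was at -0.027 without DMSO replicate 4, -0.062 without TCDD replicate 2 and 0.36 without TCDD replicate 4.

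The number of members called was 3, and 1 with a filter of a mean of 10 CPM, which grn1 and cd74a did not pass, 1 at an adjusted p under 0.01, and 1 with length offsets and without DMSO 1 and TCDD 2. It was 1 to 3 when 1 library was left out. Over all genes 1174 were called, 614 higher and 560 lower. DESeq2 gave 2007 (939 and 1068), an adjusted p under 0.01 gave 327 (191 and 136), and one under 0.1 gave 2070 (995 and 1075). Leaving out DMSO 1 and TCDD 2 gave 616 (338 and 278), and with length offsets 661 (368 and 293). Leaving out 1 library gave 523 to 1854, with 294 to 682 higher and 229 to 1172 lower. Library size alone gave 937 higher and 372 lower, moved the median of all genes by 0.13 and raised the share of calls that were higher from 52.3% to 71.6%. The causes were not tested.

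Same-numbered samples had correlations of deviations of -0.293, -0.217, 0.0942 and 0.277, so the numbers were not taken to pair the samples. With a replicate block 1347 genes and 3 members were called. Counts under about 20 per library, as for cd74a in TCDD, limit what can be resolved.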

Other observations

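The metalloproteinase genes mmp9 and mmp13a, which wounded or inflamed tissue and leukocytes express, were named here after their values were seen. Both were highest in TCDD 4. The gene mmp13a had 23.97, 31.1, 28.02 and 41.1 CPM in DMSO 1 to 4 and 57.8, 82.5, 46.3 and 227 CPM in TCDD 1 to 4. The groups did not overlap, but the log2 fold change of 1.74 ± 0.53 was not called (adjusted p = 0.112). The gene mmp9 had 53.8 to 61.5 CPM in DMSO, 47.1 to 65.7 CPM in TCDD 1 to 3 and 197 CPM in TCDD 4. Of the 10 marker genes, 4 (npsn, grn2, marco and lcp1) were also highest in TCDD 4 among the TCDD libraries in TMM-scaled CPM. Another 3 (lyz, grn1 and cd74a) were lowest there. By library size alone 6 markers were highest and 2 lowest in TCDD 4.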
